A study of Arabidopsis thaliana with 37 samples.

Results

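On this array, 39 probe sets were selected because their signal was higher at 21 than at 9 days in both wild-type accessions of Arabidopsis thaliana. The values that chose them were the Col arrays at both ages, the Ler arrays at 9 days and the Ler (1) arrays at 21 days. A probe set was chosen by a mean log2 difference of at least 1 in Col and in Ler, with every 21-day array above every 9-day array in each accession. Of 8247 probe sets on the array, 6112 exceeded a signal of 12.2 on at least 3 arrays and were tested, and 45 of these met both age criteria. Of the 45, 6 separated Col from Ler by 1 or more at both ages and were left out, which gave 39. The age differences of the wild types therefore describe the choice and were not tested.

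The study measured total RNA of seedlings on 37 one-colour arrays. The groups were ago1-10 at 9 days (4 arrays), 21 days (3) and 35 days (3), ago1-11 at 21 days (3) and 9 days (4), and dcl1-9 at 21 days (4). The wild types were Ler (2) at 21 days (4), Ler (1) at 21 days (3), Ler at 9 days (3), Col at 21 days (3) and Col at 9 days (3). No other treatment is given in the labels, which also do not name the wild type of the 2 ago1 alleles, and each array is 1 labelled sample. The labels give whole seedlings, so fewer cells of a type and less RNA per cell cannot be told apart.

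AGO1 is the Argonaute protein that carries microRNAs and small interfering RNAs to their target transcripts, and DCL1 is the Dicer-like enzyme that makes most plant microRNAs. Between the ages sampled, wild-type Arabidopsis goes from a seedling with its first true leaves to a rosette that approaches flowering. Mutants of AGO1 and DCL1 are known for abnormal leaves and slowed growth, so equal age in days need not be equal stage. The table of probe sets and genes used here lists no probe set of AGO1 or DCL1, so the genotypes could not be checked on their own transcripts.

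Array medians differed by up to 1.53 on the log2 scale before they were brought to a common value. Signals below are scaled intensities, and differences are on the log2(signal + 1.2) scale. Differences of dim probe sets depend on the amount added, and those that rest on values under 12.2 are uncertain in size. The title codes of 2 older ago1-10 arrays differ from those of their age group: 21-day replicate 3 carries the number 3 of the 35-day titles, and 35-day replicate 1 the number 2 of the 21-day titles. Counts of calls that rest on these arrays are given both ways. Values of single probe sets, and counts of those above or below the wild types, keep the ages as labelled unless stated. Titles also open with a code whose meaning the labels do not give. In ago1-10, 9-day replicate 4 and all 35-day arrays carry code x49, and the other 9-day and all 21-day arrays x44, so code and age cannot be told apart between 35 and 21 days. In ago1-11, the 4 arrays at 9 days carry x51, x53, x54 and x57, 1 each, and all 21-day arrays x57. Each code of the Col, Ler and Ler (1) arrays covers both ages of its accession. In Ler (2), the title of replicate 1 names Ler, and those of the other arrays name WT.

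The 39 probe sets were of ordinary brightness. Their mean signal had a median of 35.4, against 38.6 over all those tested, and ran between 4.99 and 506. In 16 of the 39, both 9-day wild-type means lay under 12.2, and in 3 both 21-day means did too. Of the 39, 14 had 1 listed gene, and these stood for 13 loci. The other 25 were not listed and are given by probe set name, without a role. Locus names put 9 of the 14 on chromosome 2, or 64.3%, against 37.1% of the 2701 tested probe sets with 1 gene.

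Within the choice, the Col difference ran between 1.00 and 3.95 with a median of 1.41, and the Ler difference between 1.01 and 5.60 with a median of 1.36. Among all probe sets tested, limma called 1.77% higher at 21 days in Col and 2.6% in Ler, at a Benjamini-Hochberg adjusted p under 0.05. Nothing is read from the 39 of 39 here, since these contrasts chose them. At the edge of the rule, 20720_at stood just inside with 1.00 in Col and 1.03 in Ler, and 18670_g_at with 1.01 and 1.05. Just outside were 17648_at, with 1.26 in Col and 0.98 in Ler, and AT2G35820 (19387_at), with 0.93 and 1.55.

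**Figure D1:**
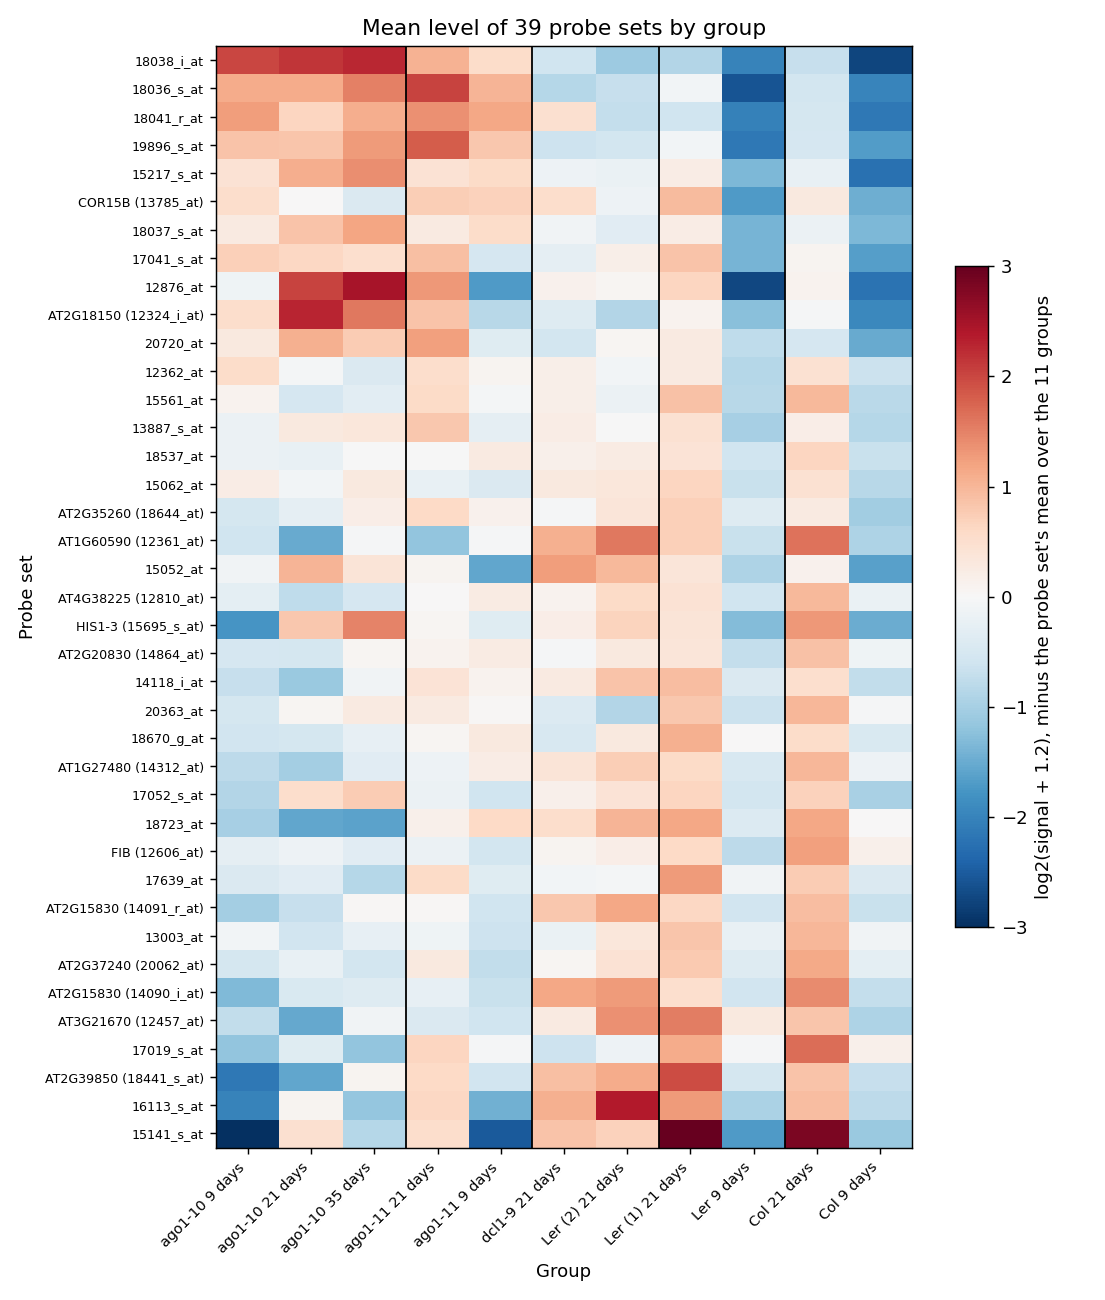
Mean level of the 39 probe sets (rows) in the 11 groups (columns), as log2(signal + 1.2) minus the row's mean over the groups. Red is high and blue is low. Rows run from those highest in the 2 ago1 alleles relative to the wild types at 9 days to those lowest. The top 5 rows are red in all 5 ago1 columns, and the bottom rows are blue in ago1-10 at 9 days.

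The 4 arrays of the second Ler set, Ler (2), took no part in the choice. In 37 of 39 the Ler (2) mean at 21 days was above the Ler mean at 9 days, which did enter the choice, against 47.3% of all tested. In 26 every Ler (2) array was above every 9-day Ler array, against 12.5% of all tested. The 9-day Ler signal was low by the choice, so these counts are a description. With Ler (2) in place of Ler (1), the same rule chose 40 probe sets, of which 22 were shared with the 39. Relative to Ler (1), whose signal was high by the choice, Ler (2) had a median difference of -0.35 over the 39 and -0.01 over all tested. The widest gap was 15141_s_at, at 76.7, 39.6, 31.0 and 49.6 in Ler (2) against 303, 883 and 330 in Ler (1).

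In ago1-10, limma called 6 of the 39 higher at 21 than at 9 days and 0 lower. That is 15.4% higher, against 5.04% of all probe sets tested called higher and 5.66% called lower. The rule did not use the arrays compared, but the shared spread also came from the wild-type arrays that chose the 39. With only the groups compared, 6 were called higher in ago1-10 and 3 in ago1-11, against 3.27% and 0.802% of all tested. In ago1-10 that setting called 15052_at in place of 16113_s_at. At an unadjusted p under 0.05 the counts were 11 higher and 2 lower, with 25.1% of all tested in either direction. The median difference of the 39 was 0.11, against -0.01 over all tested. Of the 39, 23 were above 0, or 59.0%, against 49.05% of all tested. The 6 called were HIS1-3, AT2G18150, 12876_at, 15141_s_at, 16113_s_at and 17052_s_at. With only the 3 arrays of code x44 at 9 days, the same 6 were called.

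HIS1-3 (AT2G18050, 15695_s_at) encodes a linker histone H1 variant that is linked to drought. It had 126, 111 and 114 at 21 days in ago1-10, against values between 14.2 and 27.7 on the 4 arrays at 9 days. The 2 ages did not overlap, and the difference was 2.58 ± 0.46 (SE; limma adjusted p = 0.00027). At 35 days in ago1-10 it had 129, 297 and 166, which again lay above every 9-day array. In Col it had 229, 158 and 122 at 21 days against 14.8, 27.2 and 28.5 at 9 days, which chose it.

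AT2G18150 (12324_i_at) encodes a class III peroxidase, an enzyme family that acts on cell wall phenolics. It had 907, 657 and 529 at 21 days in ago1-10, against 197, 249, 147 and 215 at 9 days. Every 21-day array was above every 9-day array, and the difference was 1.77 ± 0.45 (SE; limma adjusted p = 0.0097). At 35 days in ago1-10 it had 924, 441 and 173, and the value of 173 lay below 3 of the 4 arrays at 9 days. Its ago1-10 levels were above all Col and Ler arrays at 9 days and above all Col, Ler (1) and Ler (2) arrays at 21 days. One of its 37 readings was deposited with exactly 3 decimals and was multiplied by 1000. With that reading taken as written the difference was -1.20, and without 21-day replicate 1 the adjusted p was 0.055.

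Other probe sets with no listed gene had larger or similar differences in ago1-10. 15141_s_at had 18.2, 37.2 and 94.4 at 21 days in ago1-10, against 1.26, 3.07, 4.42 and 1.19 at 9 days, a difference of 3.59 ± 0.54 (SE; limma adjusted p = 3.1e-05). Those 9-day values were all under 12.2, and over the alternatives the difference ran between 1.67 and 4.14. All 3 values at 21 days lay below the Col and Ler (1) arrays, which chose it and whose lowest was 179, but they overlapped the Ler (2) arrays. 12876_at had 96.7, 39.9 and 156 at 21 days, against 25.9, 15.4, 14.9 and 17.9 at 9 days, a difference of 2.15 ± 0.45 (SE; limma adjusted p = 0.0017). 16113_s_at, close to background in ago1-10, had 18.5, 23.6 and 3.75 at 21 days, against 3.77, 1.43, 2.73 and 0.768 at 9 days. Its groups overlapped by 1 array, and the difference was 2.08 ± 0.55 (SE; limma adjusted p = 0.012). Its call was lost in 3 of 17 alternatives, over which the difference ran between 0.73 and 2.80. 17052_s_at differed by 1.42 ± 0.29 (SE; limma adjusted p = 0.0012).

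In ago1-11, limma called 8 of the 39 higher at 21 than at 9 days and 0 lower. That is 20.5% higher, against 1.44% of all probe sets tested called higher and 1.08% called lower. At an unadjusted p under 0.05 the counts were 13 higher and 1 lower, with 14.0% of all tested in either direction. The median difference of the 39 was 0.45, against 0.01 over all tested. Of the 39, 30 were above 0, or 76.9%, against 50.8% of all tested. The count was 5 without 9-day replicate 2, 3 or 4, against 1.08%, 0.998% and 0.916% of all tested. It was 4 without 21-day replicate 1 or 2, against 0.785% and 0.802%.

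The 8 were AT2G18150, AT2G37240, 12876_at, 13887_s_at, 15141_s_at, 16113_s_at, 19896_s_at and 20720_at. The peroxidase AT2G18150 had 331, 200 and 236 at 21 days in ago1-11, against 82.4, 109, 73.5 and 52.7 at 9 days. The ages did not overlap, and the difference was 1.69 ± 0.45 (SE; limma adjusted p = 0.036). That call was lost in 8 of 15 alternatives, with the adjusted p as high as 0.53. 15141_s_at had 14.8, 73.1 and 66.8 at 21 days, against 2.34, 6.85, 2.39 and 6.09 at 9 days, a difference of 3.05 ± 0.54 (SE; limma adjusted p = 0.00091). 12876_at had values between 37.9 and 70.0 at 21 days, against 2.73, 3.58, 14.2 and 4.87 at 9 days, a difference of 3.00 ± 0.45 (SE; limma adjusted p = 8.6e-05). The 9-day values of both were near or under 12.2. Over the alternatives the difference of 15141_s_at ran between 1.59 and 3.77, and that of 12876_at between 1.61 and 3.42.

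AT2G37240 (20062_at) had 46.6, 51.6 and 40.7 at 21 days in ago1-11, against 28.1, 17.9, 17.3 and 25.8 at 9 days. The ages did not overlap, and the difference was 1.04 ± 0.29 (SE; limma adjusted p = 0.045). The call was lost in 10 of 15 alternatives, with the adjusted p as high as 0.17. In ago1-10 it was 0.31 ± 0.29 (adjusted p = 0.56). 13887_s_at had 69.5, 106 and 111 at 21 days in ago1-11, against 43.7, 44.2, 35.8 and 51.4 at 9 days, a difference of 1.09 ± 0.22 (SE; limma adjusted p = 0.0045). 20720_at differed by 1.60 ± 0.36 (SE; limma adjusted p = 0.012), and 19896_s_at by 1.02 ± 0.29 (SE; limma adjusted p = 0.0497), next to the threshold. The call of 19896_s_at was lost in 10 of 15 alternatives and that of 16113_s_at in ago1-11 in 7 of 15.

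Other members with a named locus did not pass the test for age in either allele, with the ages as labelled. By title number, AT4G38225 and AT1G27480 were called lower at 21 than at 9 days in ago1-10. AT2G15830 was measured by a pair of probe sets. 14090_i_at had 119, 133 and 152 at 21 days in ago1-10, against 99.6, 92.9, 72.3 and 41.5 at 9 days. The ages did not overlap, and the difference was 0.87 ± 0.39 (SE; limma adjusted p = 0.15). 14091_r_at gave 0.34 ± 0.31 in ago1-10 (SE; limma adjusted p = 0.55). AT4G38225 (12810_at) had 35.7, 46.4 and 82.6 at 21 days in ago1-10, against 65.0, 70.0, 79.7 and 73.7 at 9 days. Its value was -0.47 ± 0.28 (SE; limma adjusted p = 0.30), and the array numbered 3 in its title was the highest of the 7. AT2G35260 (18644_at) gave 0.26 ± 0.32 in ago1-10 and 0.47 ± 0.32 in ago1-11 (SE). AT1G27480 gave -0.23 ± 0.35 in ago1-10 and -0.37 ± 0.35 in ago1-11 (SE). AT2G20830 (14864_at) gave -0.01 ± 0.22 in ago1-10 and -0.13 ± 0.22 in ago1-11 (SE).

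Of the 39, 4 were called higher at 21 days in both alleles, against 0.851% of all tested: AT2G18150, 12876_at, 15141_s_at and 16113_s_at. In at least 1 allele 10 were called, against 5.63% of all tested, and 20 had a difference above 0 in both, or 51.3% against 29.0%. The age differences of the 39 in ago1-11 and ago1-10 had a Pearson r of 0.703 across probe sets, against 0.43 across all tested. These are values across probe sets on the same arrays, not across independent samples.

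**Figure D2:**
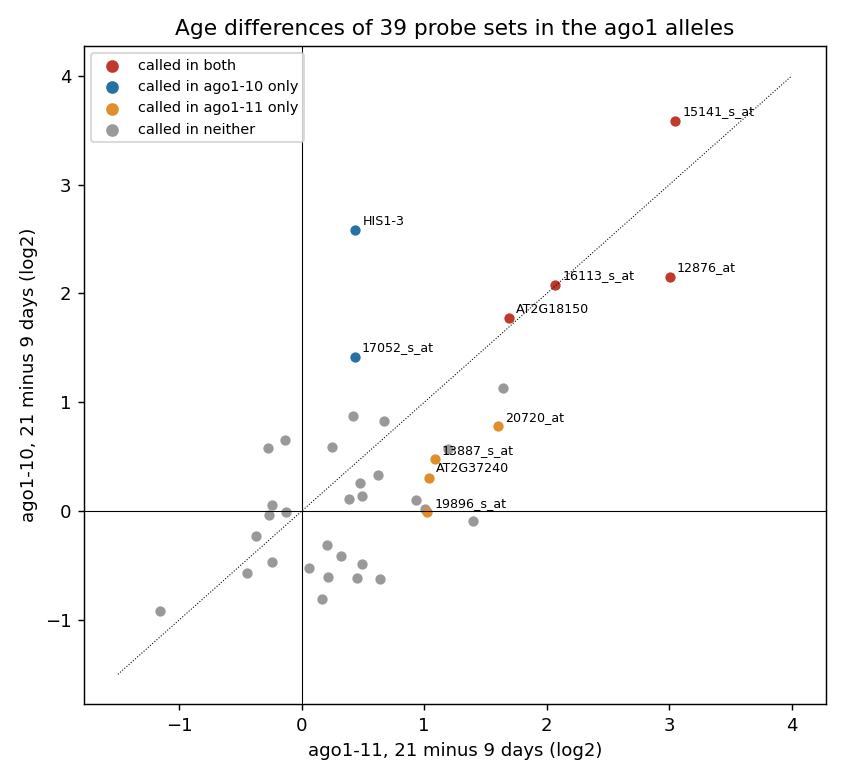
Age difference (21 minus 9 days, log2) of the 39 probe sets in ago1-10 (vertical) against ago1-11 (horizontal). Each point is 1 probe set, coloured by the alleles in which limma called it, and the dotted line marks equal differences. The 4 called in both lie at the upper right, and HIS1-3 lies at 2.58 in ago1-10 and 0.44 in ago1-11.

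No probe set of the 39 differed between the alleles in its age difference at an adjusted p under 0.05. With limma, 0 were higher and 0 lower in ago1-11, against 0.327% and 0.18% of all tested. At an unadjusted p under 0.05 there were 5 higher and 2 lower, with 13.8% of all tested in either direction. HIS1-3 had the lowest value, -2.14 ± 0.65 (SE; limma adjusted p = 0.10). In ago1-11 it had 96.1, 72.7 and 46.2 at 21 days, against 50.5, 20.6, 43.5 and 139 at 9 days, a difference of 0.44 ± 0.46 (SE). Its 9-day replicate 4 stood above all 3 older arrays. Without 9-day replicate 2 of ago1-11, HIS1-3 was the only one of the 39 called lower, against 0.638% of all tested.

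At 9 days, 11 of the 39 had all 4 ago1-10 arrays above all 6 arrays of Col and Ler at that age, against 8.07% of all probe sets tested. In ago1-11 there were 10 such, against 2.68%, and 8 of the 39 were shared by the alleles. The wild-type arrays took part in the choice of the 39, whose 9-day signal was low by that choice, so nothing is read from these counts. The shared probe sets were COR15B, 12362_at, 15217_s_at, 18036_s_at, 18037_s_at, 18038_i_at, 18041_r_at and 19896_s_at. Of these, 18041_r_at had a scaled signal of at most 7.88 on the wild-type arrays and 11.6 on the dcl1-9 arrays. Only ago1 arrays were above 12.2, so it may have passed the filter through them alone, and its wild-type values are close to background.

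COR15B (AT2G42530, 13785_at) encodes a cold-regulated protein of the chloroplast that protects membranes during freezing. It had 520, 397, 672 and 253 at 9 days in ago1-10 and 446, 405, 599 and 497 in ago1-11. The wild types at 9 days had 46.5, 108 and 148 in Ler and 132, 95.3 and 98.7 in Col. The 9-day arrays of both alleles overlapped the range of the 21-day wild types that chose it, with 398, 1036 and 454 in Ler (1) and 495, 371 and 268 in Col. Ler (2) at 21 days had 180, 347, 239 and 345, which overlapped the 9-day ago1-10 arrays and lay below all those of ago1-11. Its age difference was -0.53 ± 0.36 in ago1-10 (SE; limma adjusted p = 0.38) and 0.06 ± 0.36 in ago1-11 (adjusted p = 0.96).

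18036_s_at had 516, 441, 517 and 491 at 9 days in ago1-10 and 763, 296, 321 and 640 in ago1-11. The 9-day wild types had 41.5, 31.1 and 37.9 in Ler and 41.0, 55.6 and 81.9 in Col. At 21 days it had 541, 311 and 732 in ago1-10 and 1124, 986 and 735 in ago1-11, while Ler (1) had 230, 219 and 195. The lowest ago1 array at either age was above the highest wild-type array. dcl1-9 was not in this range, with 104, 143, 119 and 140, against 175, 127, 109 and 157 in Ler (2).

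18036_s_at and 19896_s_at had a Pearson r of 0.991 over the 25 arrays that the rule did not use. That was the highest of 741 pairs among the 39, whose median was 0.114. Among the 8 shared probe sets, which were picked by their 9-day values, the 28 pairs ran between -0.24 and 0.991, with a median of 0.529. They include 18041_r_at, which was above 12.2 on ago1 arrays only. These correlations share the arrays and the genotype differences, and probe sets ending in _s_at can detect more than 1 transcript. Among the 39, 30.8% had that ending, against 19.3% of all tested. Among named genes the closest pair was AT1G27480, an acyltransferase-like gene, with AT4G38225, at 0.921.

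At 21 days, 17 of the 39 had all ago1-10 arrays below all 6 arrays of Col and Ler (1), against 11.3% of those tested, and 7 had all above, against 9.64%. In ago1-11, 9 were below, against 3.89%, and 5 above, against 3.98%. The wild-type signal at 21 days was high by the choice, so these counts too are a description. Ler (2), which the choice did not use, is given below for AT2G35260, AT3G21670, FIB and AT1G60590.

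Those below in ago1-10 included AT3G21670, FIB, AT1G60590, AT4G38225, AT1G27480, AT2G20830, AT2G35260, AT2G37240 and AT2G15830 (14090_i_at). Of these, FIB and AT2G35260 overlapped Ler (2), and the others were below all its arrays. AT2G35260 had 333, 348 and 492 in ago1-10 at 21 days, against 970, 526, 435 and 580 in Ler (2). AT3G21670 (12457_at), a nitrate transporter of the NRT1/PTR family, had 18.7, 5.69 and 32.5 in ago1-10 and 26.8, 40.8 and 38.3 in ago1-11 at 21 days. Ler (2) had 255, 93.0, 81.0 and 120, Ler (1) 218, 80.4 and 155, and Col 45.2, 106 and 129, all above both alleles. Its age difference was -0.81 ± 0.44 in ago1-10 (SE; limma adjusted p = 0.25) and 0.17 ± 0.44 in ago1-11 (adjusted p = 0.91).

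FIB (AT4G04020, 12606_at) encodes fibrillin, a protein of the plastid lipid droplets called plastoglobules. It had 70.0, 134 and 123 in ago1-10 at 21 days, against 176, 130, 109 and 132 in Ler (2) and 168, 192 and 173 in Ler (1). The ago1-10 arrays were below Ler (1) and overlapped Ler (2). Its age difference was 0.11 ± 0.23 in ago1-10 (SE; limma adjusted p = 0.83) and 0.39 ± 0.23 in ago1-11 (adjusted p = 0.47). AT1G60590 (12361_at), a pectin lyase-like gene, had 3.43, 3.30 and 1.09 in ago1-10 and 5.16, 2.14 and 3.21 in ago1-11 at 21 days, all under 12.2. Ler (2) had 20.8, 43.2, 34.2 and 24.8, and Ler (1) 16.2, 12.9 and 18.5. Its age differences were the lowest of the 39 in each allele, -0.92 ± 0.44 in ago1-10 (SE; limma adjusted p = 0.18) and -1.16 ± 0.44 in ago1-11 (adjusted p = 0.19).

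**Figure D3:**
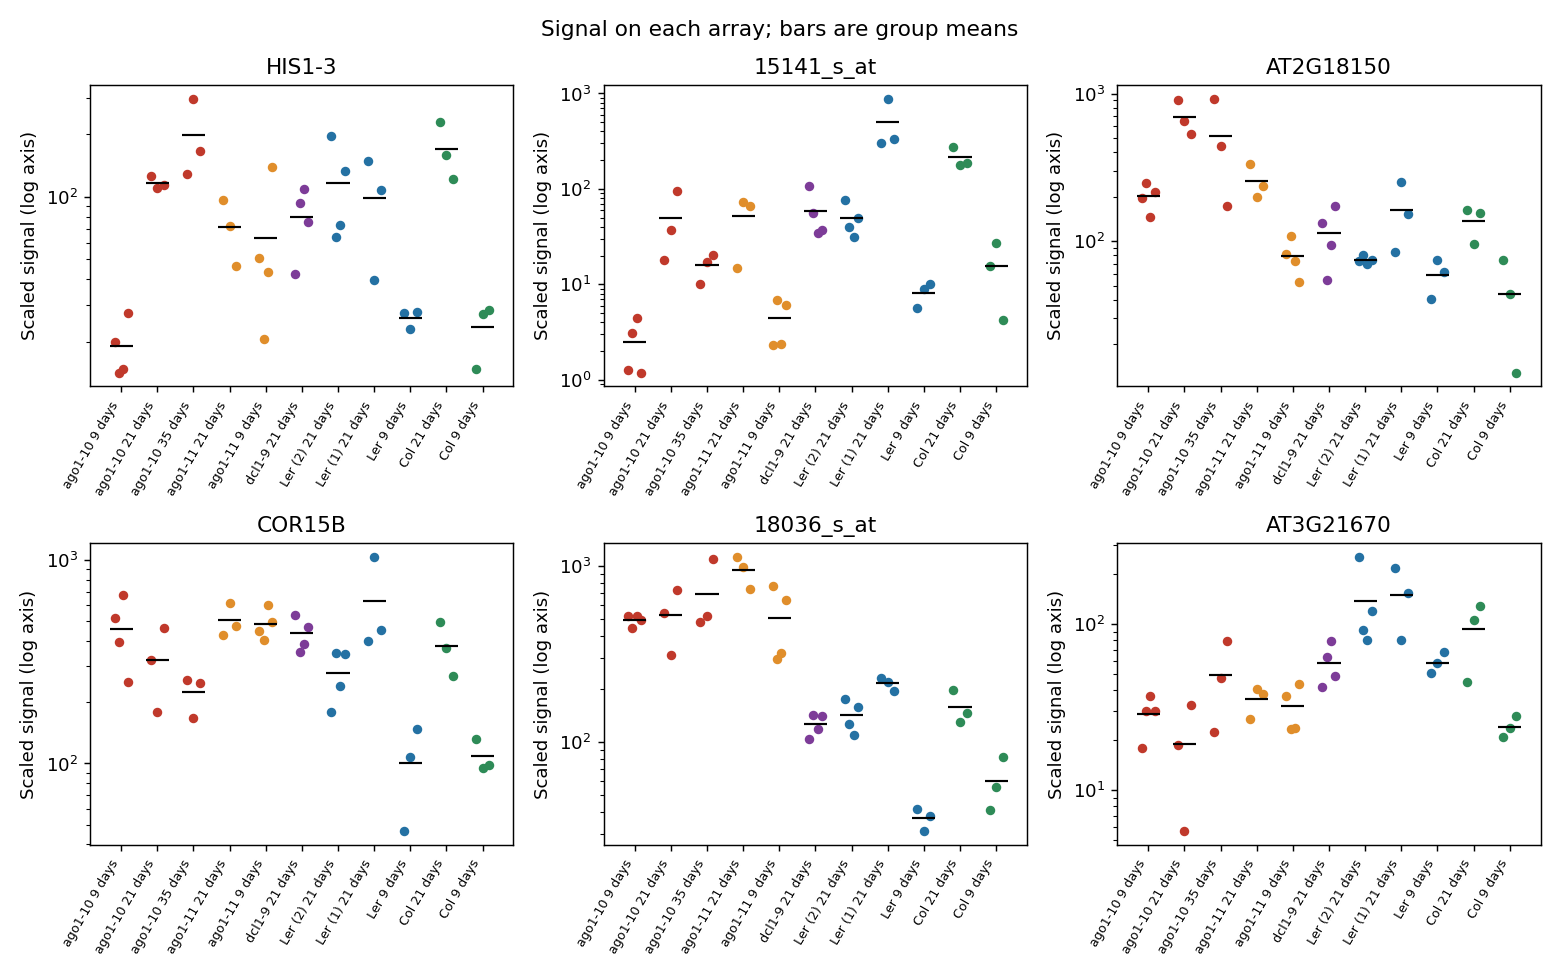
Scaled signal on every array (log axis) of 6 of the 39, by group, with group means as bars. HIS1-3, 15141_s_at and AT2G18150 are higher at 21 than at 9 days in ago1-10. At 9 days in the ago1 alleles, COR15B overlaps the 21-day wild types and 18036_s_at lies above them, and AT3G21670 is below the wild types at 21 days.

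Directly between the alleles at 21 days, limma called 4 of the 39 higher in ago1-11 than in ago1-10 and 0 lower. That is 10.3% higher, against 4.73% of all tested called higher and 2.6% called lower. At an unadjusted p under 0.05 there were 13 higher and 4 lower, with 22.6% of all tested in either direction. The median difference of the 39 was 0.53, against 0.00 over all tested. The 4 were AT2G39850, 14118_i_at, 18723_at and 19896_s_at. The count was 9 without ago1-10 21-day replicate 3, against 6.56% of all tested. It was 2 without ago1-10 replicate 1 or 2 or ago1-11 replicate 2, against 3.16%, 2.27% and 2.75%.

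AT2G39850 (18441_s_at), a subtilisin-like protease gene, had 12.8, 27.6 and 24.2 in ago1-11, against 0.857, 1.38 and 19.7 in ago1-10. The value of 19.7 is that of ago1-10 replicate 3, the array with the title number of the 35-day set, and it lay within the ago1-11 range. The difference was 2.18 ± 0.57 (SE; limma adjusted p = 0.015), and the call was lost in 5 of 15 alternatives. That of 19896_s_at was lost in 9 of 15. 18723_at had 21.6, 23.6 and 22.4 in ago1-11, against 4.89, 5.41 and 8.28 in ago1-10. Its groups did not overlap, and the difference was 1.71 ± 0.40 (SE; limma adjusted p = 0.0067). 14118_i_at differed by 1.52 ± 0.35 (SE; limma adjusted p = 0.0067). Photosynthesis genes moved with this comparison: 11 of 14 were called higher in ago1-11 and 0 lower. Their summed signal was between 30870 and 33090 in ago1-11 and between 13230 and 18160 in ago1-10, and their part in the result was not tested.

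Between 35 and 21 days in ago1-10, limma called 0 of the 39 higher and 0 lower, against 0.0164% and 0.0327% of all probe sets tested. At an unadjusted p under 0.05 there were 6 higher and 2 lower, with 8.2% of all tested in either direction. The lowest limma adjusted p of the 39 was 0.38. AT3G21670 had 22.4, 47.8 and 79.2 at 35 days, against 18.7, 5.69 and 32.5 at 21 days. The difference was 1.44 ± 0.47 (SE; limma adjusted p = 0.38), and the ages overlapped. Without 35-day replicate 1 it was called higher, the only one of the 39, against 0.540% of all tested. Without 21-day replicate 3 only AT2G39850 of the 39 was called higher, against 0.115%.

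When the older ago1-10 arrays were grouped by title number, 12 of the 39 were called higher in the arrays numbered 3 than in those numbered 2 and 0 lower, with 6.17% and 5.61% of all tested. The largest was AT2G39850, at 12.1 or higher in the arrays numbered 3, against 0.857, 1.38 and 10.9 in those numbered 2. AT1G27480 (14312_at) had 73.8, 69.7 and 128 in the arrays numbered 3, against 24.5, 30.4 and 25.7 in those numbered 2. The 2 sets did not overlap, and the difference was 1.66 ± 0.26 (SE; limma adjusted p = 0.00014). Under the same grouping, 21 against 9 days gave 6 higher and 4 lower, against 7.17% and 8.97% of all tested. The 4 lower were 12362_at, AT4G38225, AT1G27480 and 18723_at. The 6 higher were those called with the ages as labelled.

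**Figure D4:**
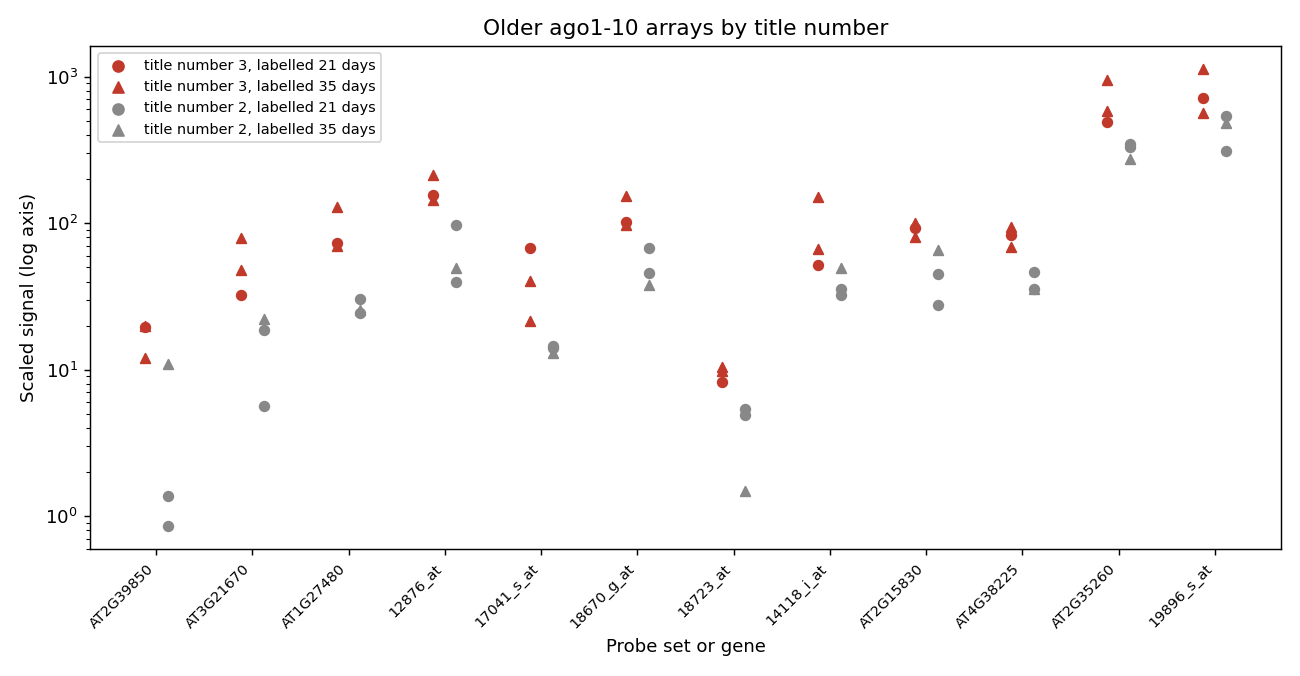
Scaled signal (log axis) on the 6 older ago1-10 arrays, for the 12 of the 39 called between title numbers. Red marks arrays numbered 3 and grey those numbered 2. Circles are labelled 21 days and triangles 35 days. In each of the 12 columns, all red points lie above all grey points.

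In dcl1-9 at 21 days, limma called 0 of the 39 higher and 0 lower than in Ler (2), against 0.638% and 0.147% of all tested. At an unadjusted p under 0.05 there were 2 higher and 3 lower, with 10.0% of all tested in either direction. The lowest limma adjusted p of the 39 was 0.31. The median difference was -0.15, against -0.03 over all tested. Of the 39, 13 were above 0, or 33.3%, against 46.4% of all tested. AT3G21670 had 42.1, 63.5, 79.9 and 49.1 in dcl1-9, against 255, 93.0, 81.0 and 120 in Ler (2). Every dcl1-9 array was below every Ler (2) array, with a difference of -1.10 ± 0.41 (SE; limma adjusted p = 0.31). The lowest difference of the 39 was that of 16113_s_at, -1.305 ± 0.51 (SE; limma adjusted p = 0.35). It had between 24.0 and 27.9 in dcl1-9, against 49.7 or more in Ler (2). The highest was 18041_r_at, at 1.19 ± 0.45 (SE; limma adjusted p = 0.33), with all arrays of both groups under 12.2. COR15B had 538, 354, 388 and 470 in dcl1-9, against 180, 347, 239 and 345 in Ler (2). The groups did not overlap, and the difference was 0.68 ± 0.33 (SE; limma adjusted p = 0.49).

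**Figure D5:**
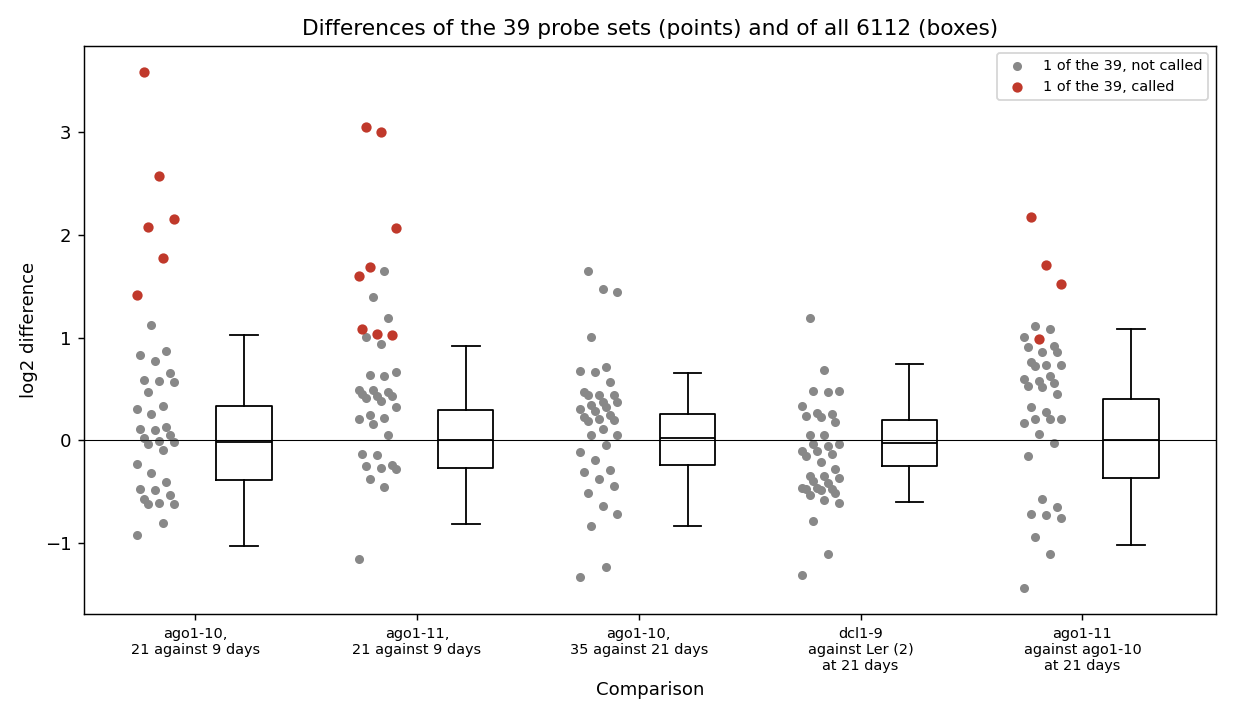
log2 differences of the 39 probe sets (points, red where limma called them) in 5 comparisons that the rule did not use, beside all 6112 tested (boxes: median, quartiles and the range between the 5th and 95th percentiles). Called points appear for age in both ago1 alleles and for ago1-11 against ago1-10 at 21 days, and none for the other comparisons shown.

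COR15B was the only one of the 39 on a list of 5 cold and drought genes, with COR47, LTI30, DI21 and KIN2. In ago1-10, 1 of the 5 was called higher at 21 than at 9 days and 0 lower. It was LTI30, a dehydrin, at 1.78 (limma adjusted p = 0.0092). In ago1-11 limma called 0 of the 5, and 2 higher and 0 lower at an unadjusted p under 0.05, with LTI30 at 1.06 (adjusted p = 0.27). Pollen and flower markers, a check for plants at another stage, had a summed signal over 4 genes of between 127 and 222 on all 37 arrays. In ago1-10, 1 of these 4 was called higher at 21 than at 9 days and 0 lower, and its part in the results was not tested. It was the anther gene ATA20, at 1.195 ± 0.28 (SE; limma adjusted p = 0.0045), which in ago1-11 gave -0.03 (adjusted p = 0.97). Of seed and early seedling markers, 1 gene was tested, and limma called it lower at 21 than at 9 days in ago1-11, at -3.28. Its signal in ago1-11 ran between 27.2 and 43.6 at 9 days and between 2.02 and 2.495 at 21 days. In ago1-10 this gene gave -1.64 and was not called, and its part in the results was not tested.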

How the data were processed

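Total RNA of Arabidopsis seedlings was hybridised to 37 arrays, and the deposited table holds 1 intensity per probe set and array. The authors made these intensities with MAS5, a tool listed in the submitters' processing notes. Its scaling is not given in the sources used here. Of the 305139 values, 7913 had exactly 3 decimals and were multiplied by 1000, since no deposited value otherwise reached 1000. Probe sets above 12.2 (the 40th percentile) on at least 3 arrays were kept, arrays were brought to 1 shared median over these, and log2(signal + 1.2) was taken, where 1.2 is the 10th percentile.

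One limma fit (version 3.58.1, R 4.3.3; lmFit, eBayes with a mean-variance trend) had a mean per group over all 37 arrays. Calls are at a Benjamini-Hochberg adjusted p under 0.05 over 6112 probe sets within a comparison. The design text speaks of biological replicates without saying how plants were pooled. The number of arrays limits the precision. On simulated data, limma recovered 92% of probe sets changed 4-fold and 45% of those changed 2-fold for 21 against 9 days in ago1-10, 92% and 51% for that in ago1-11, and 96% and 50% for dcl1-9 against Ler (2). Recovery was 87% and 35% between the alleles at 21 days, 82% and 34% for 35 against 21 days, and 71% and 12% for the change between alleles.

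Members and gene lists were chosen with earlier results of these data known. Named are members with 1 listed gene, the called members with the highest and lowest differences, members on a list, and those next to the rule's threshold; members described for their 9-day level, their likeness or their title-number difference were picked after their values were seen. Alternatives changed the scaling, the amount added, the filter, the reading of 3-decimal values, the samples in the fit, the age labels by title number, a replicate block and each array in turn. Genes come from the platform annotation, updated through a RefSeq table of the TAIR10.1 assembly: 3794 probe sets had 1 gene, 70 several and 4383 none listed. Sequences were not used here.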

Additional observations from a re-analysis of the deposited data

Results flagged for a closer look

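Among the 39 probe sets, 2 of the 92 groups of 4 arrays tested held 1 array far from the others, where chance flags about 1 in 20 groups. 14118_i_at had 215.5 on Ler (2) replicate 1, and 138.2 to 140.1 on the other 3 arrays of that group. The title of replicate 1 names Ler, and those of the other 3 name WT. Within Ler (2), replicate 1 was also the highest for AT3G21670 and AT2G35260, and the lowest for COR15B and AT1G60590. 17052_s_at had 23.41 on dcl1-9 replicate 4, and 32.58 to 33.47 on the other 3.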

How the results depend on the processing

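Over 282 recomputations of single called probe sets, 225 kept direction and call, 56 kept direction only and 1 reversed: AT2G18150 for 21 against 9 days in ago1-10, at -1.20 with 3-decimal values as written. HIS1-3, 12876_at, 15141_s_at and 17052_s_at kept their calls in ago1-10 under every alternative run. For 21 against 9 days in ago1-10, 1 member was called lower with quantile normalization and with 3-decimal values as written, and 4 by title number. Of all tested, 5.79%, 4.99% and 8.97% were called lower in these settings. In ago1-11, 4 were called higher with no filter on low values and with 3-decimal values as written, and 3 with only the groups compared. The shares of all tested were 0.776%, 0.946% and 0.802%. For 35 against 21 days, 12 were called higher by title number, against 6.17% of all tested. In dcl1-9, 1 was called lower with 16 added, 16113_s_at, against 0.196% of all tested. With only the groups compared 2 were, 16113_s_at and 18670_g_at, against 2.11%. The change between alleles had 2 higher by title number, against 1.28% of all tested. For ago1-11 against ago1-10 at 21 days, 2 were higher with only the groups compared and 12 by title number, against 0.638% and 9.65% of all tested. In that comparison 1 was lower with scaling to a trimmed mean, by title number and with the replicate block, and 2 with 16 added. The shares of all tested called lower were 3.86%, 6.35%, 2.39% and 3.71%.

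With 1 array left out in turn, calls higher ranged between 4 and 6 for ago1-10 age, 4 and 9 for ago1-11 age, 0 and 1 for 35 against 21 days, and 2 and 9 between alleles at 21 days. In the same order, shares of all tested ran between 2.99% and 5.24%, 0.785% and 1.31%, 0% and 0.540%, and 2.27% and 6.56%. Calls lower ranged between 0 and 1 for the change between alleles, with between 0% and 0.638% of all tested. The cause of these shifts was not tested. The rule itself gave 12 probe sets with 16 added, 11 of them shared with the 39, and between 36 and 46 with 1 wild-type array left out. Letters and numbers at the end of titles were not used as pairs in the main fit. Correlations of same-labelled deviations ran between -0.085 and 0.256 for ago1-10 age and -0.093 and 0.108 for ago1-11 age. They ran between -0.119 and 0.464 for 35 against 21 days, -0.304 and 0.179 for dcl1-9, and 0.060 and 0.267 between alleles at 21 days. Pairs with different labels ran between -0.238 and 0.167 for ago1-10 age and -0.263 and 0.318 for ago1-11 age. They ran between -0.4925 and 0.122 for 35 against 21 days, -0.257 and 0.212 for dcl1-9, and -0.289 and 0.150 between alleles. The ranges overlap and hold few pairs, so a shared origin of same-labelled arrays is not excluded. With the replicate block, the calls higher were 6 for ago1-10 age, 6 for ago1-11 age, 0 for 35 against 21 days, 0 for dcl1-9, 0 for the change between alleles and 3 between alleles at 21 days.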
